A study of Mus musculus with 4 samples.

Results

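Single cortical cells from stroke mice given an antibody against VCAM1 or an antibody against VLA4 were set against cells from sham-operated mice given an isotype control antibody, to see which cell classes and genes lay near the sham level and which did not. Cells were taken by library title and kept with at least 500 UMIs (unique molecular identifiers, 1 for each captured RNA molecule), 200 or more genes and no more than 10% mitochondrial UMIs. After called doublets were left out, 4657 cells of the anti-VCAM1 library and 6209 of the anti-VLA4 library remained, 10866 in all, beside 1514 sham cells, out of 15544 deposited barcodes in the 4 libraries of the series. The stroke library with isotype antibody was not used, so no value here compares treated with untreated stroke tissue. Both comparisons use the same sham library, and their values are therefore given side by side and not as independent evidence of each other.

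All mice were male C57BL/6N, 10 months old. Stroke mice had dMCAO surgery, in which a distal branch of the middle cerebral artery is blocked, and antibodies were given for 10 weeks. Every library, sham included, carries the tissue labels sensory cortex and infarct core, and per the labels' protocols it took in the core and about 2 mm of cortex around it. Cortices of 4 to 5 perfused mice were pooled in each group before dissociation, and cells were stained for CD31 (an endothelial surface protein) and CD45 (a leukocyte surface protein), with dead cells left out. Which stained fractions were collected is not given in the sources used here, so shares of cells can be set by the sort as well as by the tissue.

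VCAM1 is an adhesion molecule that activated endothelium displays on its luminal face, and VLA4 is the integrin on lymphocytes and myeloid cells that binds it, a pair of the chains encoded by Itga4 and Itgb1. Their contact slows circulating leukocytes on the vessel wall before they cross it. Brain endothelium is sealed by tight junctions and carries nutrient and efflux transporters, and in venules it is the main site of leukocyte entry. Microglia are the resident macrophages of the brain parenchyma, and border-associated macrophages live along vessels and in the meninges.

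Total UMIs over kept cells were 9857631 in sham, 24387573 in anti-VCAM1 and 33389282 in anti-VLA4, at median depths of 5456.5, 4515 and 4719 UMIs per cell. The 3 pairs of libraries shared between 1 and 7 cell barcodes. Each group is 1 library of pooled mice, so no spread between samples exists, no test was possible and no p-value is given. Intervals in parentheses are 95% intervals for counting error only, and they do not cover differences between mice or between sorts. For genes each UMI counts as independent, so these intervals leave out the spread between cells too. They are too narrow where few cells hold most UMIs of a gene, and the calls below rest on them. A ratio to sham is called near where its whole interval lies within 1.5-fold either way, higher or lower where it is past 1.5-fold and its interval leaves out equality, and unresolved otherwise. Gene levels are CPM, the UMIs of a gene scaled by the UMI total of its class in that library, ratios are log2 ratios of CPM + 1, and a gene is called measured with at least 100 UMIs over the compared libraries. Genes that pass this minimum through the library where they are high had to differ, so counts over a list cover its measured genes and not all of it. With cluster makeup held at that of sham, CPM were averaged over clusters of at least 20 cells in each library with the weights of sham. Values are listed in the order sham, anti-VCAM1, anti-VLA4 throughout, and pairs of ratios in the order anti-VCAM1, anti-VLA4.

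Microglia-like shares were near sham in both comparisons, and border macrophage-, dendritic-, natural killer- and neutrophil-like shares were lower in both. Microglia-like cells made up 46.2%, 39.1% and 39.8% of kept cells, with log2 ratios of -0.24 (-0.37 to -0.11) and -0.22 (-0.34 to -0.093). Endothelial-like cells made up 36.3%, 51.3% and 49.2%, a log2 ratio of 0.50 (0.36 to 0.64) in anti-VCAM1, unresolved at the 1.5-fold bound, and of 0.44 (0.31 to 0.57) in anti-VLA4, near. Sham thus had the smallest endothelial-like share and the largest microglia-like share of kept cells of the 3 libraries. Of leukocytes alone microglia-like cells were 75.2%, 89.1% and 88.0%, near in both at log2 ratios of 0.25 and 0.23, and there sham had the smallest share.

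Border macrophage-like cells were 6.80% (5.59 to 8.19%) of sham cells, 1.07% (0.798 to 1.41%) of anti-VCAM1 cells and 1.16% (0.908 to 1.46%) of anti-VLA4 cells, or 103, 50 and 72 cells. Their log2 ratios to sham were -2.66 (-3.18 to -2.16) and -2.55 (-3.01 to -2.10), the lowest pair among classes with 50 or more cells in each library. Among leukocytes alone they were 11.1%, 2.45% and 2.56%, with log2 ratios of -2.18 and -2.11. Naming cells one by one from their markers gave ratios of -1.93 and -1.67, still lower. The class was 2 clusters of unequal marker support. One, led by F13a1, Mrc1 and Pf4, held 29.1%, 36% and 40.3% of it and made up 1.98%, 0.387% and 0.467% of kept cells, lower in both at -2.36 (-3.29 to -1.47) and -2.08 (-2.87 to -1.30). The other, led by MHC class II genes with Cxcl2, held 70.9%, 64% and 59.7% of the class and made up 4.82%, 0.687% and 0.693% of kept cells, at -2.81 (-3.46 to -2.19) and -2.80 (-3.38 to -2.24). In that larger cluster 5 of 8 border macrophage markers were found and none was among its 10 leading genes.

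Dendritic-like cells, which present antigen, were 1.65%, 0.515% and 0.290% of cells, and natural killer-like cells were 0.925%, 0.193% and 0.0483%. Both were lower in each comparison, with log2 ratios of -1.68 and -2.51 for dendritic-like cells and of -2.26 (-3.65 to -0.95) and -4.26 (-6.70 to -2.42) for NK-like cells, which numbered 14, 9 and 3. Neutrophil-like cells were 1.25%, 0.515% and 0.0966%, lower in both, at log2 ratios of -1.28 and -3.70, though of leukocytes alone the anti-VCAM1 ratio of -0.80 was unresolved. Antibody-secreting plasma cell-like cells numbered 3, 0 and 6. The counts behind these classes are small, at most 25 cells in any library.

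T cell-like cells were 3.30% (2.46 to 4.33%) of sham, 2.00% (1.61 to 2.44%) of anti-VCAM1 and 3.09% (2.68 to 3.55%) of anti-VLA4 cells. The anti-VLA4 share was near sham, with a log2 ratio of -0.095 (-0.55 to 0.38), and the anti-VCAM1 share was lower, at -0.73 (-1.24 to -0.20). Of leukocytes the T cell-like shares were 5.37%, 4.55% and 6.83%, unresolved in both comparisons. With leukocyte clusters not clustered a second time, which put other leukocytes into the same clusters, the anti-VLA4 ratio was -0.59. B cell-like shares were 1.12%, 0.472% and 0.660%, lower in anti-VCAM1 at -1.25 and unresolved in anti-VLA4 at -0.77, on 17, 22 and 41 cells. Of leukocytes alone the B cell-like ratios were -0.76 (-1.74 to 0.24) and -0.32, unresolved in both.

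Pericyte-like cells, the contractile cells on capillaries, were 0.661%, 1.18% and 1.45%, higher in anti-VLA4 at a log2 ratio of 1.13 (0.19 to 2.24) and unresolved in anti-VCAM1 at 0.84 (-0.15 to 1.98), against only 10 sham cells. Astrocyte-like shares of 0.330%, 0.666% and 0.709% were unresolved. A cluster with pericyte markers in which all 8 endothelial markers were also found in most cells was left unnamed. It held 1 sham cell, 116 anti-VCAM1 cells and 192 anti-VLA4 cells, shares of 0.0661%, 2.49% and 3.09%. Against the single sham cell these are ratios of 37.7 (6.64 to 1502) and 46.8 (8.30 to 1859). Scrublet, the doublet caller, had marked 0.721%, 1.33% and 1.96% of cells in the 3 libraries, and whether the remaining cluster holds pairs of cells was not tested.

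**Figure D1:**
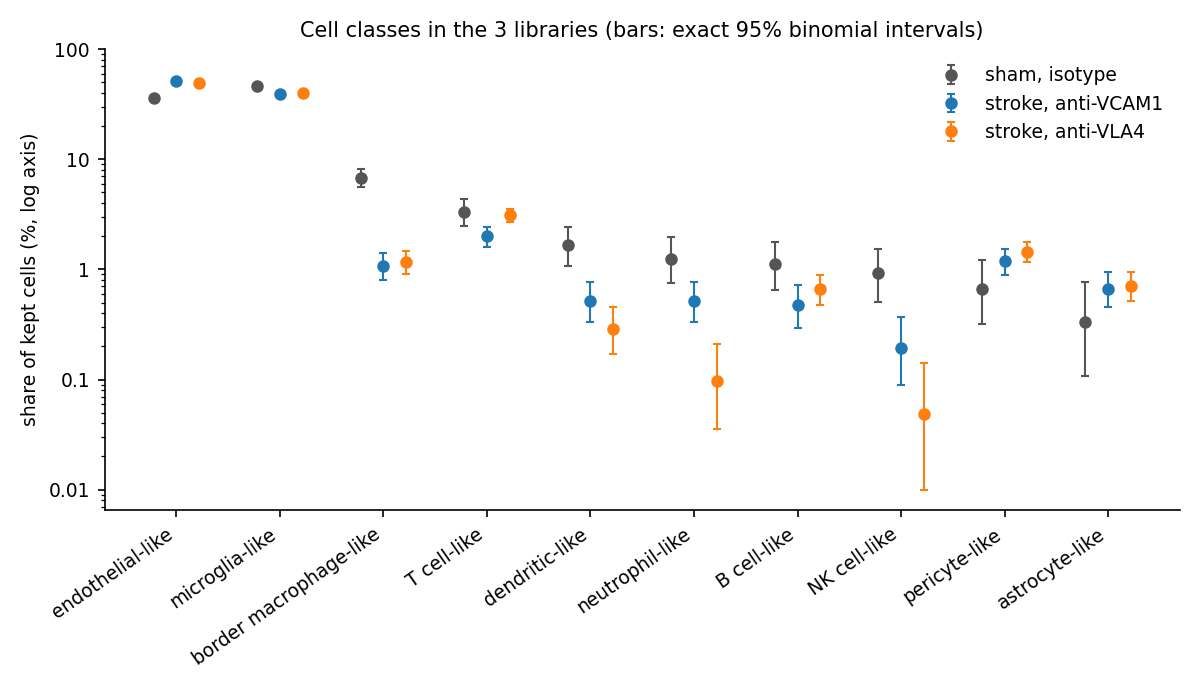
Share of kept cells in each named class (percent, log axis) for the 3 libraries, 1 point per library with its exact 95% binomial interval. Border macrophage-like cells stand at 6.80% in sham against 1.07% and 1.16%, while microglia-like cells differ little, at 46.2%, 39.1% and 39.8%.

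Vcam1, whose product is the target of the first antibody, was lower in endothelial-like cells of both blockade libraries. Its level was 84.6 (73.6 to 96.7) CPM in sham, 27.5 (24.6 to 30.7) in anti-VCAM1 and 20.1 (18.0 to 22.4) in anti-VLA4, log2 ratios of -1.59 (-1.88 to -1.36) and -2.02 (-2.33 to -1.81). Few cells carried the transcript: 5.83%, 2.85% and 2.42% of cells of this class had at least 1 Vcam1 UMI, and 10 cells held 78.9%, 57.1% and 51.9% of its UMIs. After each cell was thinned to 1000 UMIs, the shares with a UMI were 4.13% (2.60 to 6.18%), 1.39% (0.95 to 1.95%) and 1.08% (0.737 to 1.51%). With cluster makeup held at that of sham the log2 ratios were -0.87 and -1.65, so that the anti-VCAM1 ratio was smaller and both stayed lower. As a background for free RNA, no T cell-like cell of 49, 89 and 186 had a Vcam1 UMI after thinning, which allows shares of up to 6.12%, 3.37% and 1.61%. The thinned endothelial-like shares lie below these bounds in each library. This background therefore cannot tell Vcam1 of endothelial-like cells from free RNA. Median depths were 3893, 4051 and 4381 UMIs in endothelial-like cells and 5235.5, 4570 and 3685.5 in T cell-like cells.

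Vcam1 was not called lower in the other classes where it was measured. In microglia-like cells it was 30.2, 32.8 and 46.8 CPM, near in anti-VCAM1 at 0.11 and higher in anti-VLA4 at 0.61 (0.37 to 0.89), a call that was lost at the coarser clustering (0.58) and with a pseudocount of 10 CPM (0.50). In border macrophage-like cells it was 225, 379 and 379 CPM, log2 ratios of 0.75 (0.40 to 1.11) and 0.75 (0.43 to 1.08), called higher. In the one cluster of these cells with at least 20 cells in sham and anti-VCAM1, the anti-VCAM1 ratio was -2.69, and with makeup held at that of sham the anti-VLA4 ratio was 0.42, unresolved. The direction in border macrophage-like cells is therefore not settled.

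The VLA4 chains were near sham or unresolved in each class where they were measured. Itga4 in T cell-like cells was 583, 579 and 632 CPM, near in both comparisons at -0.0097 (-0.30 to 0.28) and 0.12 (-0.14 to 0.38). Itga4 in border macrophage-like cells was 195, 162 and 196 CPM, unresolved in anti-VCAM1 and near in anti-VLA4. Itgb1, which also pairs with other integrin chains, was near in both comparisons in endothelial-like cells (476, 463 and 453 CPM), microglia-like cells (247, 234 and 245), T cell-like cells (649.9, 618 and 615) and border macrophage-like cells (241, 259 and 283). These are RNA levels, and binding of an antibody to either protein was not measured.

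In endothelial-like cells, 9285 genes were measured in the anti-VCAM1 comparison and 9719 in the anti-VLA4 comparison. Of these, 37.9% and 35.8% were near sham, 3.91% and 4.31% higher and 11.0% and 12.1% lower, so that 14.9% and 16.4% were apart from it. The split between the directions depends on the scaling. On CPM 363 genes were higher and 1023 lower in anti-VCAM1, 26.2% of genes apart being higher. With TMM factors, which shift every ratio by 0.19, 1210 were higher and 372 lower, or 76.5%. In anti-VLA4 the same split was 419 higher and 1177 lower on CPM (26.3% higher), and 1300 and 490 with TMM (72.6%), at a shift of 0.19. List medians below are therefore to be read against the median of all measured genes, -0.086 and -0.087 on CPM.

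Several measures of the libraries moved with the groups in this class, and their part in the gene values was not tested. Longer genes had lower ratios: the fifth of measured genes with the shortest genomic spans (median 4.86 kb) had a median log2 ratio of 0.32 in anti-VCAM1 and 0.30 in anti-VLA4, and the fifth with the longest (median 125 kb) had -0.46 and -0.49. Ribosomal protein genes summed to 68343, 104074 and 104852 CPM, and haemoglobin genes, which red blood cells make, to 275, 4475 and 4999 CPM. In microglia-like cells of the same libraries haemoglobin genes summed to 15.7, 9.81 and 10.4 CPM, and in T cell-like and border macrophage-like cells to at most 20.1 CPM. Markers of pericytes summed to 127, 249 and 256 CPM with all 8 present in each library, and markers of microglia to 72.3, 115 and 114 CPM with all 8 present. Those of neurons summed to 13.1, 10.8 and 13.1 CPM. A cluster low in the nuclear transcript Malat1 held 6.38%, 24.0% and 24.3% of the class, and a cluster led by Il1r1 and Vwf held 8.38%, 1.89% and 2.00%. The largest sham cluster held 52.5%, 26.6% and 24.9%.

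**Figure D2:**
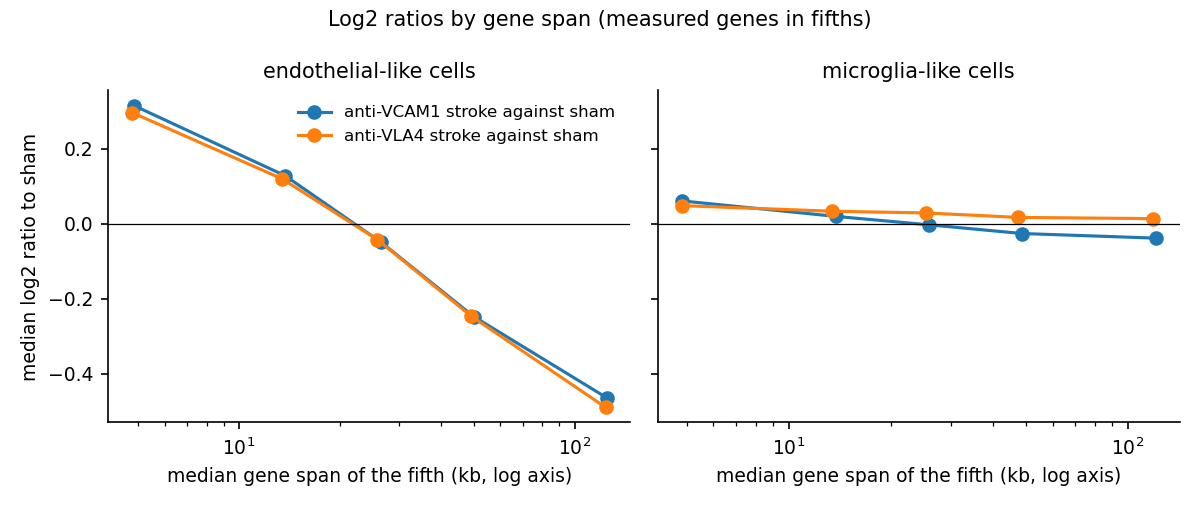
Median log2 ratio to sham (y axis) of measured genes in 5 equal bins by genomic span (x axis, kb, log axis), for endothelial-like and microglia-like cells, 1 line per comparison. In endothelial-like cells the medians run from 0.32 to -0.46 in anti-VCAM1 and from 0.30 to -0.49 in anti-VLA4, and in microglia-like cells only from 0.061 to -0.038 and from 0.048 to 0.014.

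Of 16 adhesion and activation genes, 8 were measured, and in each comparison 4 of them were lower (Vcam1, Icam1, Il1r1 and Osmr), 3 near and 0 higher. The median log2 ratios were -0.52 and -0.62, and 0.091 and 0.052 after thinning to 1000 UMIs, which left 5 genes of the list measured in anti-VLA4. Il1r1, the receptor for interleukin-1, was 87.4, 24.6 and 25.7 CPM, log2 ratios of -1.78 (-2.08 to -1.56) and -1.73 (-2.00 to -1.52). Held at the cluster makeup of sham these were -0.74 and -0.45, the latter unresolved. Icam1, a second leukocyte adhesion molecule, was 30.2, 19.3 and 17.8 CPM, at -0.62 and -0.73, and Osmr, the oncostatin M receptor, was 145, 88.5 and 85.8 CPM, at -0.70 and -0.75. The transcription factor Irf1 (98.1, 94.8 and 91.8 CPM) and the TNF receptor Tnfrsf1a (38.1, 42.3 and 39.3 CPM) were near in both. The selectin genes Sele and Selp had at most 17 UMIs in any library.

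The venous list shares its measured genes Vcam1, Icam1 and Il1r1 with the adhesion list. It had medians of -0.62 and -0.55, with 5 and 4 of 9 measured genes lower and none higher. Vwf, the clotting protein von Willebrand factor, was 235, 148 and 162 CPM, lower in anti-VCAM1 at -0.66 and unresolved in anti-VLA4 at -0.53. Nr2f2, a transcription factor of venous identity, was 36.1, 26.6 and 26.8 CPM and unresolved in both. Of 13 and 14 measured arterial genes, 8 and 9 were near, 2 and 3 higher and none lower, at medians of 0.061 and 0.17. Gkn3, an arterial marker, was 72.3, 128 and 153 CPM, at 0.82 (0.60 to 1.06) and 1.07 (0.86 to 1.30), and Tm4sf1 was 618, 950.3 and 941 CPM, at 0.62 and 0.61. Hey1, a Notch target, was 65.9, 86.8 and 102 CPM, higher in anti-VLA4 at 0.63 and unresolved in anti-VCAM1 at 0.39. Held at the cluster makeup of sham, the arterial medians were -0.013 and -0.026, and Tm4sf1 was near in anti-VCAM1, at 0.31, while the venous medians were -0.44 and -0.28. The cluster led by Il1r1 and Vwf, whose share of the class is given above, had the smaller share in both blockade libraries.

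Capillary genes lay near sham, 9 and 8 of 10, with medians of -0.063 and 0.043. The anti-VCAM1 median was 0.12 with TMM scaling. Rgcc, a regulator of the cell cycle, was the exception, at 239, 395 and 414 CPM and 0.72 (0.60 to 0.85) and 0.79 (0.67 to 0.92). Spock2, a matrix proteoglycan, stood at 2342, 2367 and 2468 CPM and Itih5 at 989, 897 and 817 CPM, both near.

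Most barrier genes were called near sham, and on CPM most lay below it. A call of near needs a narrow interval, which genes with more UMIs reach more readily. Cldn5, Cdh5, Pecam1 and Slco1a4 were also among the markers that named the class. Of 11 measured junction genes 9 were near in each comparison, with medians of -0.13 and -0.21 (0.053 and -0.015 with TMM scaling). On CPM, 2 of the 11 lay above sham in each comparison. Cldn5, the main claudin of brain endothelium, was 3271, 3545 and 3447.5 CPM, at 0.12 (0.082 to 0.15) and 0.076 (0.042 to 0.11), and Cdh5, the endothelial cadherin, was 502, 485 and 487 CPM, at -0.050 and -0.043. Marveld2, a protein of tricellular junctions, was the one gene called lower, at 22.2, 12.2 and 11.4 CPM and -0.82 and -0.90.

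All 18 barrier transport genes were measured, and 17 and 14 were near, at medians of -0.24 and -0.26. These medians lie below those of all measured genes, -0.086 and -0.087, and 5 of the 18 genes lay above sham in each comparison. The glucose transporter Slc2a1 was 1938, 1972 and 1979 CPM, at 0.025 (-0.020 to 0.070) and 0.030 (-0.014 to 0.074). The monocarboxylate transporter Slc16a1 was 376, 384 and 403 CPM and the lipid transporter Mfsd2a 299.8, 349 and 362 CPM, all near. Abcc4, an efflux pump, was lower in both at 651, 394 and 405 CPM and -0.72 and -0.68, and Slco1a4, an organic anion transporter, was 2958, 2075 and 1900.1 CPM, lower in anti-VLA4 at -0.64 and near in anti-VCAM1 at -0.51. None of these calls held with the span trend removed, where Abcc4 was -0.23 and -0.16 and Slco1a4 in anti-VLA4 was -0.45.

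Genes of the Wnt pathway, which maintains the barrier, had medians of -0.30 and -0.28 over 16 genes, 11 of them near in each comparison and 2 and 4 lower. Tcf7l1, a transcription factor of the pathway, was 55.2, 31.3 and 26.8 CPM, at -0.80 (-1.10 to -0.52) and -1.01 (-1.32 to -0.75), and Adgra2, a co-receptor, was 153, 97.4 and 99.4 CPM, at -0.65 and -0.62. With the span trend removed, Tcf7l1 was -0.36 and -0.55 and Adgra2 in anti-VCAM1 was -0.54, all unresolved. The pathway's central protein gene Ctnnb1 was near, at 515, 509 and 519 CPM, as was the endothelial transcription factor Foxq1, at 467, 468 and 424 CPM.

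Basement membrane genes had medians of -0.40 and -0.37, with 7 and 6 of 13 near and most of the rest unresolved. The collagen gene Col4a1 was 415, 385 and 397 CPM, near in both, and the laminin gene Lama4 was 118, 78.7 and 64.3 CPM, lower in anti-VLA4 at -0.86 and unresolved in anti-VCAM1 at -0.57. Angiogenesis genes had medians of -0.23 and -0.17, which were -0.046 and 0.024 with TMM scaling. Within that list Nrp2, a semaphorin and VEGF co-receptor, was lower at 69.1, 33.6 and 33.6 CPM and -1.02 and -1.02. Adm, the vasodilator peptide adrenomedullin, was higher at 16.7, 25.8 and 38.7 CPM and 0.60 (0.16 to 1.13) and 1.17 (0.76 to 1.70). The VEGF receptor Kdr was near at 586, 489 and 553 CPM.

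Interferon-response and MHC class I genes had medians of 0.16 and 0.28 over 34 measured genes, above the median of all genes, with 4 and 5 higher, 21 and 19 near and 1 and 0 lower. Isg15, an interferon-induced ubiquitin-like protein, was 210.5, 328 and 349.5 CPM, at 0.64 (0.51 to 0.77) and 0.73 (0.60 to 0.86), and Ifi27l2a was 9.53, 20.8 and 22.3 CPM, at 1.05 and 1.14. The proteasome gene Psmb9 was 54.8, 78.9 and 93.5 CPM, higher in anti-VLA4 at 0.76 and unresolved in anti-VCAM1. With the span trend removed the medians were -0.043 and 0.097, and Isg15 was near in anti-VCAM1, at 0.17.

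Genes known to respond to tissue dissociation had medians of -0.13 and -0.12 in endothelial-like cells, with 4 of 23 lower in each comparison and 13 and 14 near. Among its immediate-early genes Fos, Fosb and Egr1 were lower in both, while Jun (698, 579 and 606 CPM) and Ier2 (239.8, 264 and 267 CPM) were near. Fos was 284, 106 and 115 CPM, at -1.41 and -1.30, Fosb was 48.8, 10.5 and 13 CPM, at -2.12 and -1.84, and Egr1 was 40.5, 14.4 and 15.7 CPM, at -1.43 and -1.32. The fourth gene called lower was Nr4a1 in anti-VCAM1, at -0.63, and Zfp36 in anti-VLA4, at -0.67. With TMM scaling the medians were 0.055 and 0.058. Glucocorticoid and metallothionein genes had medians of 0.065 and 0.10. In that list the glucocorticoid-induced gene Zbtb16 was lower, at 122, 61.6 and 72.9 CPM and -0.98 and -0.74, and the metal-binding Mt1 was near, at 444, 604 and 597 CPM.

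Over genes with at least 200 UMIs and 50 CPM that were not over 10 times higher in another class, the lowest endothelial ratios in anti-VCAM1 included those of Il1r1, Nckap5, Vcam1, Camk1d and Bc1, and in anti-VLA4 they belonged to Nckap5, Vcam1, Camk1d, Bc1, Il1r1 and Lars2. Nckap5 was 61.2, 19.4 and 12.4 CPM, at -1.60 and -2.22, but -0.052 in anti-VCAM1 with cluster makeup held at that of sham. Camk1d, a calcium-dependent kinase, was 2983, 1007 and 792 CPM, at -1.57 and -1.91. Bc1, a brain cytoplasmic non-coding RNA known from neurons, was 179, 65.0 and 52.2 CPM, at -1.44 and -1.75. Lars2, a mitochondrial leucyl-tRNA synthetase, was 1099, 489.8 and 385 CPM, at -1.16 and -1.51.

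The highest ratios in anti-VCAM1 belonged to Polr2l, Msl3, Ahsa1, Elof1, Eno1 and Gadd45gip1, and in anti-VLA4 to Polr2l, Gkn3, Msl3, Elof1, Ankrd37 and Ahsa1. Polr2l, a small subunit of RNA polymerases, was 20.6, 66.7 and 63.7 CPM, at 1.65 (1.29 to 2.13) and 1.58 (1.22 to 2.06). Eno1, a glycolytic enzyme, was 92.1, 169.6 and 168 CPM, at 0.87 and 0.86, and Ahsa1, a co-chaperone of HSP90, was 44.9, 87.0 and 84.4 CPM, at 0.94 and 0.90. Ankrd37, a target of hypoxia signalling, was 60.4, 70.0 and 113 CPM, near in anti-VCAM1 at 0.21 and higher in anti-VLA4 at 0.90. Whether the anti-VCAM1 and anti-VLA4 libraries differ from each other was not compared.

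**Figure D3:**
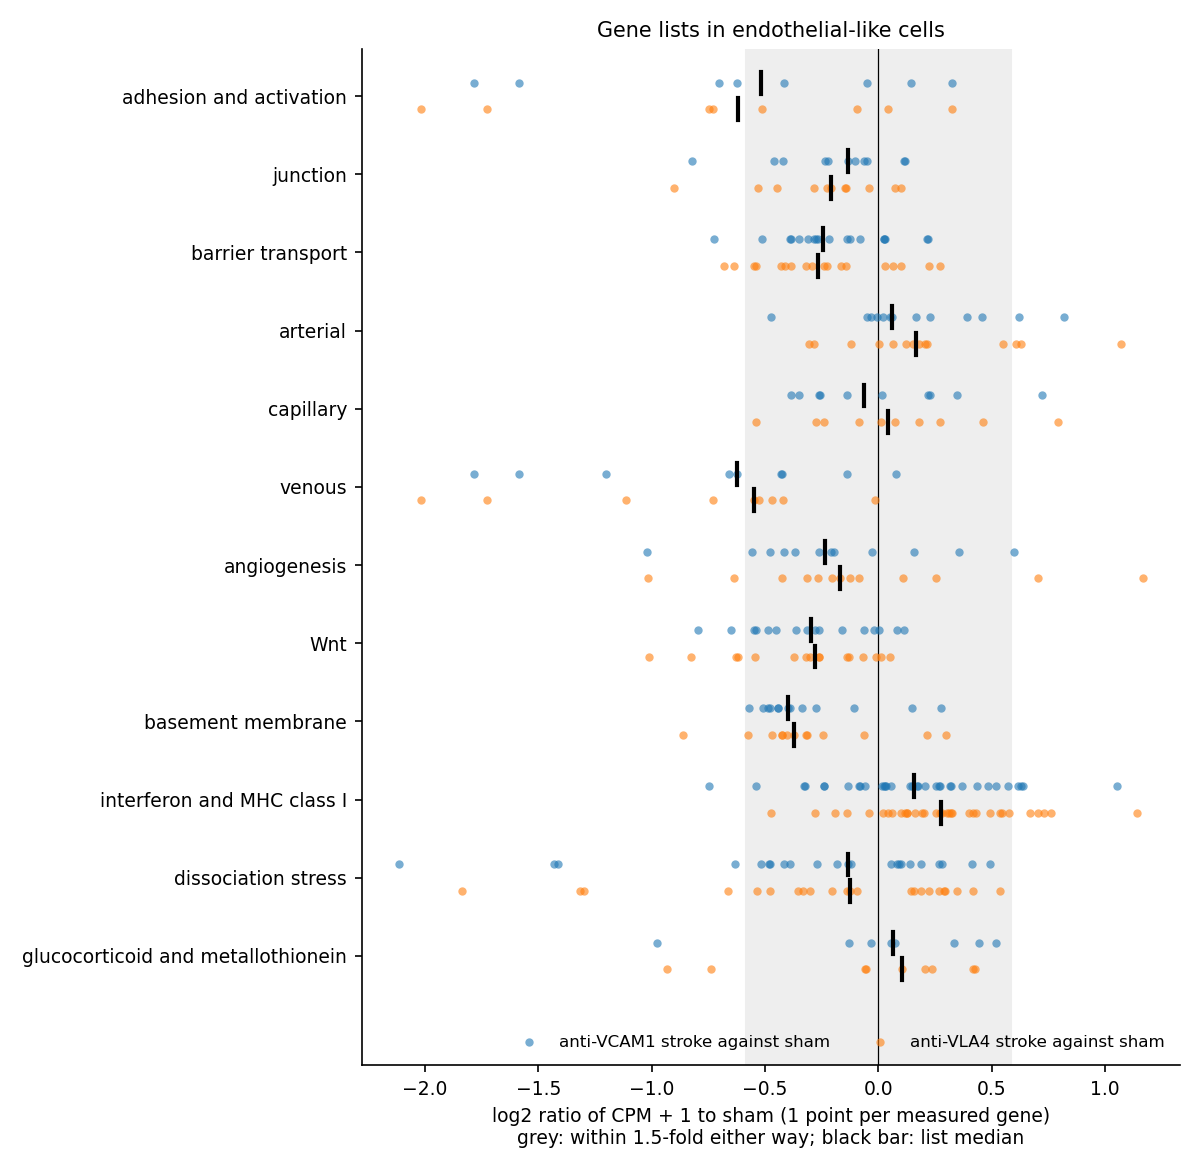
Log2 ratio of CPM + 1 to sham (x axis) for each measured gene of 12 gene lists in endothelial-like cells, blue for anti-VCAM1 and orange for anti-VLA4, with list medians as black bars and the range within 1.5-fold in grey. Most junction and barrier transport genes lie in the grey range, and the adhesion and venous medians lie at -0.52 and -0.62 and at -0.62 and -0.55.

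Microglia-like cells had most of their genes near sham. Of 9523 and 9909 measured genes, 72.0% and 68.4% were near, 1.47% and 2.11% higher and 1.47% and 2.74% lower, or 2.94% and 4.85% apart, at all-gene medians of -0.0013 and 0.027. Shares of genes called can depend on the UMI totals of a class, and neither that nor the difference between classes was tested. Median depth per cell was 7324, 5304 and 5164 UMIs. Clusters of the class differed in share: the one largest in sham held 44.7%, 21.6% and 13.8% of the class and the one largest in anti-VLA4 15.7%, 24.5% and 32.7%. Border macrophage markers summed to 198, 162 and 180.3 CPM in this class, with at most 1 of 8 at 0 in a library, and endothelial markers to 44.2, 112 and 131 CPM, with their part in the gene values not tested.

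The genes that mark microglia at rest stood at the sham level. All 16 homeostatic genes were near in both comparisons, with medians of 0.014 and 0.028. P2ry12, a purinergic receptor, was 1774, 1817 and 1755 CPM, at 0.035 (-0.0012 to 0.071) and -0.015 (-0.050 to 0.020). Tmem119 was 619.9, 643 and 646 CPM, the transcription factor Sall1 279.9, 279.7 and 289.9 CPM and the receptor Csf1r, on which microglia depend to survive, 1637, 1613 and 1624 CPM. The gene farthest from sham on this list was the fractalkine receptor Cx3cr1 in anti-VLA4, at 2688, 2401 and 2296 CPM and -0.16 and -0.23. All 15 lysosome and phagocytosis genes and all 7 measured complement genes were near too, at medians of 0.13 and 0.13 and of 0.092 and 0.085. Examples are the protease gene Ctss, at 3819, 4509.9 and 4599 CPM, and the complement gene C1qa, at 5017, 5761 and 5771 CPM.

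Disease-associated microglia genes, a programme described around plaques and damaged tissue, were higher in part and otherwise mostly near. Of 20 and 23 measured, 7 and 10 were higher, 11 and 13 near and none lower, at medians of 0.43 and 0.43. Of all measured genes in the class, 1.47% and 2.11% were higher. With cluster makeup held at that of sham, which uses 4 of the 6 clusters of the class, the medians were 0.19 and 0.12. Left out were a cluster led by Csmd3 and Trem2 (2.71%, 6.43% and 6.35% of the class) and one low in Malat1 (1.43%, 2.58% and 3.76%). Those medians thus do not cover clusters with larger shares in the blockade libraries. Apoe, the lipid carrier, was 402 (385 to 419) CPM in sham, 1942 (1915 to 1969) in anti-VCAM1 and 1669 (1648 to 1691) in anti-VLA4, log2 ratios of 2.27 (2.21 to 2.34) and 2.05 (1.99 to 2.12). The anti-VCAM1 ratio stayed higher under each of the 11 alternatives run, the lowest being 1.47 with that makeup held. Lpl, lipoprotein lipase, was 2.33, 20.3 and 9.24 CPM, at 2.68 (2.29 to 4.10) and 1.62 (1.13 to 2.98), and Cst7, a cysteine protease inhibitor, was 7.56, 27.9 and 42.2 CPM, at 1.75 (1.39 to 2.40) and 2.34 (2.01 to 2.99). Fabp5, a fatty acid carrier, was 4.46, 28.2 and 24.0 CPM, the galectin gene Lgals3 1.74, 18.3 and 7.15 CPM and the receptor Axl 4.85, 13.3 and 9.24 CPM, all higher in both. Lpl, Fabp5, Lgals3 and Axl, at no more than 4.85 CPM in sham, passed the minimum of 100 UMIs mainly through the blockade libraries. The same holds for Spp1 and, in anti-VLA4, for Gpnmb, both given below. Neither the counts of members called higher or lower nor the list medians are therefore evidence about the list as a whole.

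Part of this list rests on few cells. Spp1, which encodes the secreted protein osteopontin, had 1 UMI in sham against 273 and 204. These are ratios of CPM to sham, without a pseudocount, of 139.6 (24.9 to 5535) and 78.4 (13.9 to 3112), and 10 cells held 90.5% and 96.1% of its UMIs in the blockade libraries. Gpnmb had 0 UMIs in sham, 64 in anti-VCAM1 and 132 in anti-VLA4, at least 10.9-fold and 16.9-fold higher against a floor of 3 counts in the sham library, though its anti-VCAM1 count was under the minimum of 100 UMIs. With cluster makeup held at that of sham, Spp1 in anti-VLA4 was -0.041 and Lpl in anti-VCAM1 was 0.52, both unresolved. The clusters left out there are those given above. The more abundant members Trem2, the lipid-sensing receptor (1211, 1459 and 1482 CPM), its adaptor Tyrobp (1636, 2021 and 2086 CPM) and the protease Ctsd (2812, 3106 and 3143 CPM) were near in both. Members called higher in both thus include Apoe and Cst7 and, with the limit of the UMI minimum given above, Lpl, Fabp5, Lgals3 and Axl. These 3 abundant members were near.

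Inflammatory genes had medians below sham. Of 15 measured, 3 and 7 were lower and 9 and 4 near, at medians of -0.27 and -0.55. The blockade libraries were not compared with each other. Icam1 was 331, 188 and 151 CPM, at -0.81 (-0.91 to -0.72) and -1.13 (-1.23 to -1.04). The NF-kB regulator Nfkbiz was 465, 308 and 201 CPM, at -0.59 and -1.20. The chemokine Ccl2 was 74.8, 55.1 and 28.0 CPM, unresolved in anti-VCAM1 at -0.43 and lower in anti-VLA4 at -1.39, and Cxcl10 was 37.8, 11.1 and 29.1 CPM, lower in anti-VCAM1 at -1.68 and unresolved in anti-VLA4 at -0.36. Il1b, the cytokine interleukin-1 beta, was 32.4, 52.0 and 44.1 CPM, higher in anti-VCAM1 at 0.67 (0.43 to 0.95). Held at the cluster makeup of sham the medians were 0.15 and -0.30, the first of them turned in sign.

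Of 23 dissociation stress genes, 9 and 15 were lower and 1 and 4 higher. The medians were -0.53 and -0.81, and -0.31 and -0.23 with cluster makeup held at that of sham. Egr1, an immediate-early transcription factor, was 1085, 502 and 308 CPM, at -1.11 (-1.17 to -1.06) and -1.81 (-1.87 to -1.76), and Fosb was 369, 123 and 144 CPM, at -1.58 and -1.35. Fos was 1657, 997 and 883 CPM, at -0.73 and -0.91, and Jun 4319, 2633 and 2375 CPM, at -0.71 and -0.86. The members called higher encode heat shock proteins. Hspa1b was 72.9, 134 and 239 CPM, at 0.87 (0.72 to 1.05) and 1.70 (1.56 to 1.87), and Hspa1a was 147, 179 and 334 CPM, near in anti-VCAM1 at 0.28 and higher in anti-VLA4 at 1.18. Hsph1 was 54.1, 59.5 and 108 CPM, higher in anti-VLA4 at 0.99. The part of dissociation in the microglial values was not tested.

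MHC class II genes, which present antigen to helper T cells, were near sham or unresolved in anti-VCAM1 and higher in part in anti-VLA4. The medians were -0.044 and 0.61, with 4 of 7 higher in anti-VLA4 and 0 of 6 in anti-VCAM1. H2-Aa was 12.2, 8.43 and 25.6 CPM, at -0.49 (-1.02 to -0.042) and 1.01 (0.67 to 1.48), and Cd74, the invariant chain, was 66.1, 61.9 and 129 CPM, at -0.094 (-0.29 to 0.099) and 0.96 (0.80 to 1.14). Levels were low beside the 5159 CPM of H2-Aa in sham border macrophage-like cells. With cells named one by one, the medians were -0.64 and -0.16, and in anti-VLA4 H2-Aa was -0.39 and Cd74 was 0.070, so the calls of higher rest on how cells were assigned.

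Interferon and MHC class I genes in microglia-like cells had medians of -0.014 and 0.10, with 17 of 27 and 16 of 28 near. Ifi27l2a was higher in both, at 25.4, 47.5 and 50.1 CPM and 0.88 and 0.95, as was the antiviral membrane protein gene Ifitm3, at 27.5, 46.1 and 45.1 CPM and 0.72 and 0.69. B2m, the light chain of MHC class I, was near at 873, 882 and 904 CPM. Isg15 was 29.7, 18.9 and 21.9 CPM, lower in anti-VCAM1 at -0.62 and unresolved in anti-VLA4.

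Over all genes that met the same minimum, the lowest microglial ratios in anti-VCAM1 were those of Fosb, Klf4, Htr1f, Tmx4, Klf2 and Egr1, and in anti-VLA4 those of Egr1, Ier2, Ccl2, Htr1f, Fosb and Kdm6b. Htr1f, a serotonin receptor, was 58.7, 23.7 and 22.2 CPM, at -1.27 (-1.56 to -1.06) and -1.36 (-1.64 to -1.17), and Tmx4, a thioredoxin-related membrane protein, was 682, 286 and 337 CPM, at -1.25 and -1.02. Neither is in a stress or inflammatory list. The highest in anti-VCAM1 were Apoe, Hspa1b, Eno1, Prdx1, Atp5k and Gpr183, and in anti-VLA4 Hspa1b, Hspa1a, Hsph1, Eno1, Atp5k and Thrsp. Apoe fell outside the anti-VLA4 ranking because another class held over 10 times its level there. Eno1 was 49.0, 89.4 and 88.2 CPM, at 0.85 and 0.83, beside 0.87 and 0.86 in endothelial-like cells. Gpr183, an oxysterol receptor, was 506, 809 and 722 CPM, higher in anti-VCAM1 at 0.67 and near in anti-VLA4 at 0.51. Prdx1, a peroxidase, was 131, 225 and 152 CPM, and its anti-VCAM1 ratio of 0.78 was 0.31 without the single cell of highest count in each library.

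**Figure D4:**
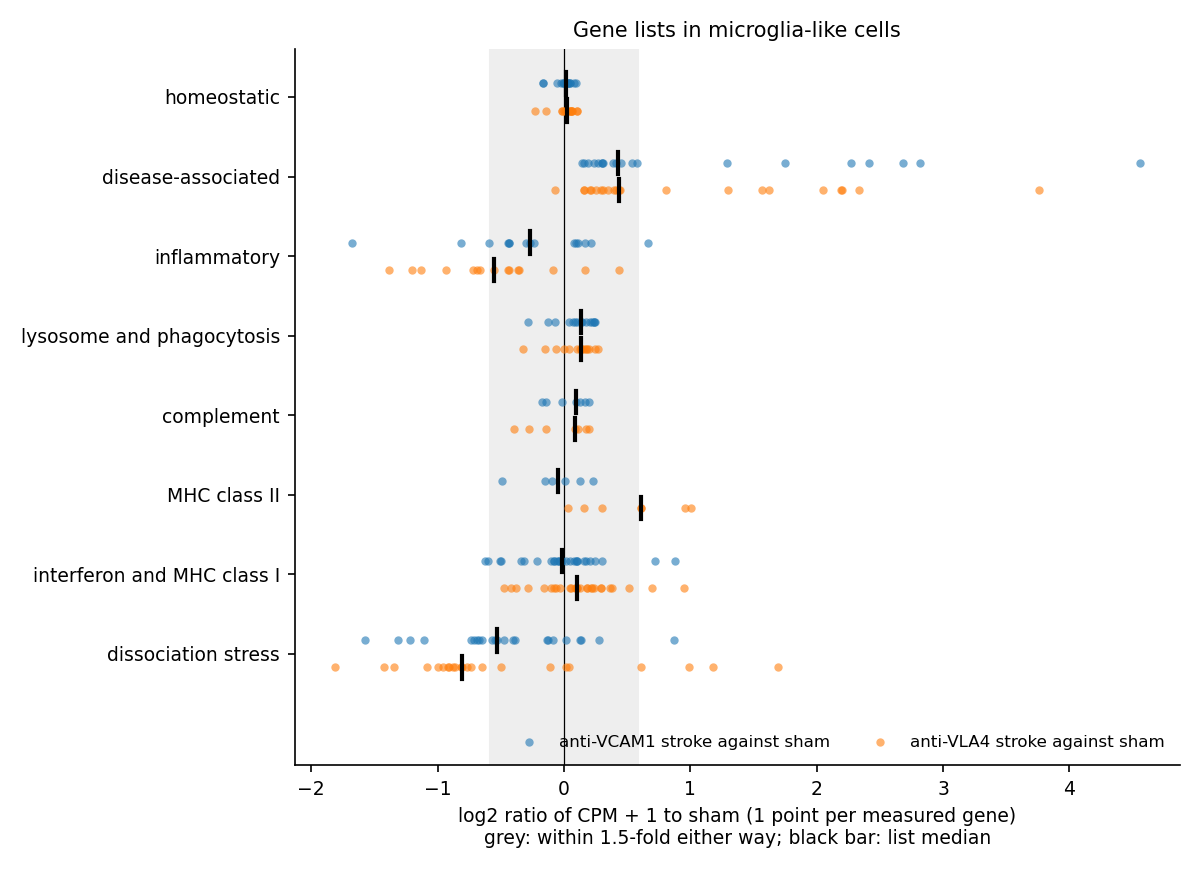
Log2 ratio of CPM + 1 to sham (x axis) for each measured gene of 8 gene lists in microglia-like cells, blue for anti-VCAM1 and orange for anti-VLA4, with list medians as black bars and the range within 1.5-fold in grey; Gpnmb, at 0 in sham, is not drawn. Homeostatic, lysosome and complement genes all lie in the grey range, while disease-associated genes lie in it or to its right, with medians of 0.43 and 0.43.

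Border macrophage-like cells were compared on 103, 50 and 72 cells, so that their values rest on few cells. Of 1713 and 1918 measured genes 25.0% and 34.4% were near, 13.1% and 7.3% lower and 6.25% and 4.17% higher, or 19.4% and 11.5% apart. The all-gene medians were -0.068 and -0.030. Microglia markers summed to 2008, 2476 and 2698 CPM, dendritic markers to 251, 146 and 169 CPM and monocyte markers to 507, 386 and 324 CPM in it, and their part in the values was not tested.

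Interferon and MHC class I genes were lower in part. Of 16 and 18 measured genes, 8 and 4 were lower and none higher, at medians of -0.51 and 0.047, and the anti-VCAM1 median was also -0.51 with genes at 0 set to their bound. After thinning to 1000 UMIs the anti-VCAM1 median was -0.021. Isg15 had 265, 7 and 77 UMIs, or 379.5, 22.7 and 186 CPM, log2 ratios of -4.01 (-5.39 to -3.00) and -1.03 (-1.41 to -0.66). Ifit3 had 160, 0 and 59 UMIs, at least 23.6-fold lower in anti-VCAM1 against a floor of 3 counts in that library. Rsad2, an antiviral enzyme, and Iigp1, an interferon-induced GTPase, also had 0 UMIs in anti-VCAM1, at least 19.0-fold and 21.1-fold lower.

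A few sham cells carried this signal. In sham, 10 cells held 90.9% of Isg15, 94.4% of Ifit3, 97.7% of Rsad2 and 96.5% of Iigp1 UMIs, and Isg15 was found in 26.2%, 10% and 25% of cells. Abundant class I genes lay nearer: B2m was 1156, 1040.3 and 1309 CPM and H2-K1 564, 502 and 708 CPM, near in both, though H2-T23 was 276, 136 and 249 CPM, lower in anti-VCAM1 at -1.02. In anti-VLA4 the thinned ratio of Ifit3 was 0.23, against -0.68 on all UMIs.

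Resident macrophage genes, which mark border macrophages long settled in the tissue, lay on different sides of sham, with medians of -0.28 and 0.32. In anti-VCAM1 4 of 9 were lower and none higher, and in anti-VLA4 4 of 10 were higher and none lower. Cd163, a haemoglobin scavenger receptor, was 152, 71.3 and 249 CPM, at -1.08 (-1.82 to -0.42) and 0.71 (0.31 to 1.12), and the hyaluronan receptor Lyve1 was 146, 51.9 and 174 CPM, lower in anti-VCAM1 at -1.48 and unresolved in anti-VLA4 at 0.25. Ccl24, an eosinophil chemokine, was 222, 94 and 362 CPM, at -1.23 and 0.70, but its anti-VLA4 ratio was -1.12 without the cell of highest count in each library. Mrc1, the mannose receptor, and F13a1, a clotting factor chain, were near in both, at 1475, 1377 and 1700.2 CPM and 1235, 1014 and 1154 CPM. Within the one cluster of enough cells the anti-VCAM1 median was -0.027, with makeup held at that of sham the anti-VLA4 median was -0.084, and after thinning the anti-VCAM1 median was 0.26.

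MHC class II genes were near in 6 of 7 cases in each comparison, H2-Aa at 5159, 4365 and 5144 CPM and Cd74 at 14260.3, 12513 and 15521 CPM, and their regulator Ciita was lower in both, at 143, 77.8 and 91.8 CPM and -0.87 and -0.64. Beyond the lists, the lowest ratios in anti-VCAM1 were those of Isg15, Ccl7 and Tnip3, and in anti-VLA4 those of Tnip3, Alcam and Dennd4a. Ccl7, a monocyte chemokine, was 712, 84.3 and 495 CPM, lower in anti-VCAM1 at -3.06 (-3.71 to -2.51) and unresolved in anti-VLA4. Tnip3, which also led the dendritic-like cluster, was 394, 55.1 and 58.0 CPM, at -2.82 and -2.74. Alcam, an adhesion molecule, was 454, 308 and 101 CPM, unresolved in anti-VCAM1 at -0.56 and lower in anti-VLA4 at -2.15.

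The highest ratios in anti-VCAM1 were those of Lgals3, AY036118 and Wfdc17, and in anti-VLA4 those of Abca1, Hspa1a and Trf. Lgals3 was 146, 661 and 133 CPM, higher in anti-VCAM1 at 2.17 (1.83 to 2.54) and unresolved in anti-VLA4 at -0.14. Its UMIs were found in 24% of anti-VCAM1 cells, and 10 cells held 99.0% of them. Abca1, a cholesterol efflux pump, was 179, 311 and 418 CPM, higher in both at 0.79 and 1.22. Wfdc17 was 201, 434 and 353 CPM, at 1.11 and 0.81, and the stress gene Hspa1a was 139, 256 and 297 CPM, at 0.88 and 1.09. AY036118, a non-coding transcript, was 172, 399 and 191 CPM, higher in anti-VCAM1 at 1.21 but -0.028 after thinning. Trf, the iron carrier transferrin, was 409.6, 467 and 865 CPM, near in anti-VCAM1 and higher in anti-VLA4 at 1.08. Stress genes had medians of -0.31 and -0.13, with 5 and 10 of 20 and 21 near.

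**Figure D5:**
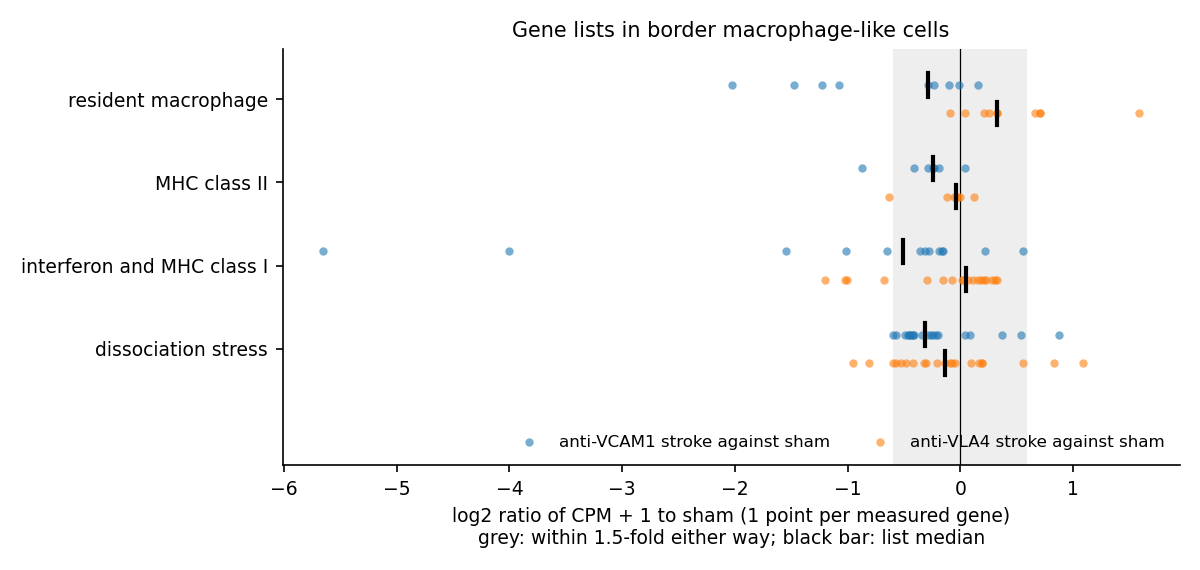
Log2 ratio of CPM + 1 to sham (x axis) for each measured gene of 4 gene lists in border macrophage-like cells, blue for anti-VCAM1 and orange for anti-VLA4, with list medians as black bars and the range within 1.5-fold in grey; genes at 0 in a library are not drawn. Isg15 lies at -4.01 in anti-VCAM1 and -1.03 in anti-VLA4, and most MHC class II genes lie in the grey range.

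T cell-like cells were compared on 50, 93 and 192 cells. Of 1078 and 1684 measured genes, 29.9% and 23.8% were near, 13.3% and 13.7% lower and 3.25% and 3.27% higher, or 16.5% and 16.9% apart. Of genes apart, 19.7% and 19.3% were higher on CPM and 42.9% and 42.5% with TMM scaling, which shifts ratios by 0.14 and 0.12. Ratios ran with gene span here too, from 0.16 to -0.41 and from 0.17 to -0.39 between the bins of the shortest and the longest genes. A cluster low in Malat1 held 6%, 24.7% and 30.2% of the class. The part of these in the gene values was not tested.

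Tissue residency genes were spread on both sides of sham, with 1 higher and 2 lower of 7 measured in anti-VCAM1 and 0 higher and 1 lower of 8 in anti-VLA4, at medians of -0.072 and -0.10 (0.064 and 0.019 with TMM scaling, and 0.59 in anti-VLA4 after thinning). Cxcr6, a chemokine receptor of resident T cells, was 418, 648 and 581 CPM, higher in anti-VCAM1 at 0.63 (0.32 to 0.95) and unresolved in anti-VLA4 at 0.48. Itga1, a collagen-binding integrin chain, was 319.9, 169.6 and 193 CPM, lower in both at -0.91 and -0.72, and the retention protein gene Cd69 was 319.9, 181 and 222 CPM, lower in anti-VCAM1 at -0.82 and unresolved in anti-VLA4. Members called apart thus lay on both sides in anti-VCAM1.

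Effector genes had medians of 0.11 and 0.22, with 1 higher and 2 lower of 6 measured in anti-VCAM1 and 1 higher and 1 lower of 8 in anti-VLA4. With a minimum of 20 UMIs the medians were -0.21 and -0.16. That minimum also takes in the granzyme Gzmb (-1.73 and -1.46) and the perforin gene Prf1 (-0.97 and -0.70), neither of them measured at 100 UMIs. Gzmk, a granzyme of memory CD8 T cells, was 165, 295 and 264 CPM, at 0.84 (0.35 to 1.35) and 0.67 (0.22 to 1.16), and the chemokine Ccl5 was 4357, 5282 and 5563 CPM, near in both at 0.28 and 0.35. Ccl4 was 751, 455 and 674 CPM, lower in anti-VCAM1 at -0.72, but 0.37 with cells named one by one, and near in anti-VLA4. Within the one T cell-like cluster of at least 20 cells in sham and anti-VLA4, which held 44%, 19.4% and 17.2% of the class, Gzmk in anti-VLA4 was -0.062, unresolved. Interferon and MHC class I genes were near in 8 of 12 and 10 of 13, H2-K1 at 1795, 1857 and 1851 CPM and H2-D1 at 1751, 1724 and 1753 CPM. Of the circulating list 1 and 4 genes were measured, at medians of 0.47 and 0.37, and of -0.28 and 0.18 with cells named one by one. Its member Il7r, the interleukin-7 receptor of naive and memory cells, was 354, 490.3 and 655 CPM, unresolved in anti-VCAM1 at 0.47 and higher in anti-VLA4 at 0.89. The stress list had medians of -0.25 and -0.32, and of -0.59 and -1.05 with cells named one by one. In anti-VCAM1 1 of 10 measured genes was higher, 1 lower and 3 near, and in anti-VLA4 2 of 13 were higher, 3 lower and 4 near. Jun, a subunit of the AP-1 transcription factor, was 108, 225 and 210.2 CPM, higher in both at 1.06 and 0.96. It had only 32 UMIs in sham, 96.9% of them in 10 cells. The gene called lower in anti-VCAM1 was Klf6, at -0.69. In anti-VLA4 Ier2, Fos and Zfp36 were lower, at -0.83, -0.64 and -0.65, and Hsph1 was higher, at 1.05. Jund and Hspa8 were near in both.

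Over all T cell genes that met the minimum, the lowest ratios in anti-VCAM1 included those of Kcnq5 and Malt1, and in anti-VLA4 they were those of Fgf13, Gramd3 and Nabp1. Malt1, a protease of antigen receptor signalling, was 478, 204 and 249 CPM, at -1.22 (-1.63 to -0.83) and -0.94 (-1.26 to -0.62). Kcnq5, a potassium channel gene, was 556, 214 and 211 CPM, at -1.37 and -1.39. Gramd3 was 1003, 609 and 366 CPM, at -0.72 and -1.45, and Nabp1, a single-stranded DNA-binding protein, was 401, 177 and 146 CPM, at -1.18 and -1.45. Fgf13 was 603, 302 and 213 CPM, at -0.99 and -1.50, and 0.27 in anti-VLA4 within that one cluster. The highest in anti-VCAM1 were Ltb, St6galnac3 and Cyba, and in anti-VLA4 Il7r, Tmem50a and Ltb. Ltb, lymphotoxin beta, was 478, 869 and 845 CPM, at 0.86 (0.58 to 1.15) and 0.82 (0.56 to 1.09), and Cyba, a chain of the NADPH oxidase, was 323, 523 and 487 CPM, at 0.69 and 0.59.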

How the data were processed

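Single-cell RNA was measured in 4 libraries, of which the 3 named above were used, and the labels gave each its group. The authors deposited raw UMI counts per gene and barcode in cell-called matrices from 10x Genomics 3′ chemistry. Cell Ranger 7.0.1 is named per the file headers, whereas the submitters' processing notes list Cell Ranger 6.0.0, Seurat 4.3.0.1 and the builds mm10 and GRCh38 without a role. The annotation and the treatment of intronic reads are not given in the sources used here.

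Barcodes needed 500 UMIs, 200 genes and no more than 10% mitochondrial UMIs to be kept, and doublets called by Scrublet (expected rate 0.05) were left out. Counts of the 3 libraries were log-normalised and clustered with scanpy 1.11.5 (2000 variable genes, 30 principal components, 15 neighbours, Leiden resolution 1) after leaving out list, target, mitochondrial, ribosomal protein and haemoglobin genes. Non-microglial leukocyte clusters were clustered a second time. Naming a cluster, with the suffix -like, took 3 or more markers of its best-matching class. Each of these had to be present in 25% or more of the cluster, with a log2 fold no lower than 1. How the best match was scored, and further conditions on the leading genes, are not set out here. A cluster stayed unnamed where at least 5 markers of a second class were each in at least 75% of its cells. This naming rule was settled after clusters were seen.

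UMIs were summed per class and library for classes with at least 50 cells in each, and no test was run. Shares have exact Clopper-Pearson intervals and levels exact Poisson intervals. Ratios have conditional binomial intervals at 95%, which leave the pseudocount of 1 CPM out. For each comparison named genes are Vcam1, Itga4, Itgb1, the 6 highest and 6 lowest ratios in endothelial-like and microglia-like cells (3 and 3 in the others) among genes with at least 200 UMIs and 50 CPM in either library and not over 10 times higher in another class, and the 2 list members with the largest and the 2 with the smallest ratios. Mitochondrial, ribosomal protein, haemoglobin, immunoglobulin and unnamed gene models were not ranked. Other list members were named after their values were seen. The members and lists were chosen with earlier results of these data known. Clec7a and Mx1 were not analysed here, and some genes that the rule names are not reported here.

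Alternatives were a Leiden resolution of 0.5, names per cell, doublets kept, a filter of 1000 UMIs, 500 genes and 5% mitochondrial UMIs, thinning to 1000 UMIs, TMM (edgeR 4.0.16) and median-of-ratios scaling, a pseudocount of 10 CPM, a minimum of 20 UMIs, leaving out clusters low in Malat1 or the top cell, holding cluster makeup, and removing the trend with gene span. Spans came from GENCODE M21, which matched 99.8% of 32285 genes. Scripts were tested on simulated data.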

Additional observations from a re-analysis of the deposited data

How the results depend on the processing

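No paired analysis was possible because each group is 1 library, and for the same reason no replicate could be left out. Of 136 ratios of shares under alternative settings, 126 stayed within their counting interval. The 10 that moved include the border macrophage-like shares with cells named one by one (-1.93 and -1.67, anti-VCAM1 and anti-VLA4), the anti-VLA4 T cell-like share without a second clustering (-0.59), and the microglia-like shares among leukocytes (0.25 and 0.23) and without clusters low in Malat1 (-0.090 and -0.072). The settings without clusters low in Malat1 (for shares) and without a second clustering were chosen after seeing the data.

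The numbers of genes apart from sham, 1386 and 1596 in endothelial-like cells, were 662 and 766 with a pseudocount of 10 CPM, 856 and 1046 without the cluster low in Malat1, 428 and 519 with cluster makeup held at that of sham and 629 and 743 with the span trend removed. In microglia-like cells, 280 and 481 became 100 and 175 with that pseudocount, 658 and 905 with a minimum of 20 UMIs, 177 in anti-VCAM1 after thinning and 275 in anti-VLA4 with makeup held. In T cell-like cells, 178 and 285 became 380 and 559 with cells named one by one, 29 and 58 after thinning, 631 and 813 with a minimum of 20 UMIs, 118 and 162 without the cluster low in Malat1, 118 in anti-VCAM1 with the span trend removed and 29 in anti-VLA4 within the one cluster of enough cells, while no T cell-like cluster held enough cells in sham and anti-VCAM1. In border macrophage-like cells, 332 and 220 became 46 and 33 after thinning and 843 and 616 with a minimum of 20 UMIs. Thinning leaves fewer genes measured and the lower minimum more, and for the other settings the cause was not tested.

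Of 631 list medians, 550 moved by no more than the median half-width of their genes' intervals and 2 that lay past the 1.5-fold bound turned in sign: adhesion genes in anti-VLA4 endothelial-like cells after thinning (0.052) and MHC class II genes in anti-VLA4 microglia-like cells named one by one (-0.16). Among 3212 ratios of named genes, 9 called higher or lower turned in sign: H2-Aa in anti-VLA4 microglia-like cells named one by one (-0.39), Spp1 there with makeup held (-0.041), Ccl4 in anti-VCAM1 T cell-like cells named one by one (0.37), Fgf13 and Gzmk in anti-VLA4 T cell-like cells with makeup held (0.27 and -0.062), and in border macrophage-like cells AY036118 in anti-VCAM1 after thinning (-0.028), Vcam1 in anti-VCAM1 with makeup held (-2.69), Ccl24 in anti-VLA4 without the cell of highest count (-1.12) and Ifit3 in anti-VLA4 after thinning (0.23). Depth limits border macrophage-like and T cell-like cells most, with 1078 to 1918 genes measured in a comparison.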
